A study of Mus musculus with 12 samples.

Results

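The 10 genes described here encode the proteins with which the liver builds and coats plasma lipoproteins. They are the apolipoprotein genes *Apoa1*, *Apoa2*, *Apoa4*, *Apoa5*, *Apob*, *Apoc2*, *Apoc3*, *Apoe* and *Apom*, and *Mttp*, which encodes the microsomal triglyceride transfer protein. They were chosen by symbol, and each symbol matched 1 of the 48795 genes in the deposited table. All 10 passed the filter on low counts, which left 13812 genes to be tested. Liver RNA of 12 female mice was sequenced. The mice were 4 months old, were kept on normal chow, and were littermates bred from *Nts*+/- parents. *Nts* encodes neurotensin, a peptide hormone of the gut and brain, and the *Nts*-/- mice lack it in the whole body and not in the liver alone. With 3 mice in each group, the *Nts*+/+ mice were fed ad libitum (254, 257 and 323) or fasted for 22 h (265, 282 and 322), and so were the *Nts*-/- mice (277, 303 and 319 fed; 284, 290 and 295 fasted).

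Each library held between 21999647 and 45273069 counts. *Nts* itself had 4 to 46 counts in each of the 6 libraries labelled *Nts*-/- and 0 in each of the 6 labelled *Nts*+/+. Transcripts of the targeted allele and exchanged genotype labels cannot be told apart from these counts, so every genotype named below is that of the deposited label. The 6 hepatocyte markers were all abundant, with means over the 12 livers between 2283 and 100085 CPM. All levels are TMM-normalized CPM, that is, counts scaled to the size of each library and by edgeR's trimmed mean of M values. Because whole liver was sequenced, fewer cells of a type and less RNA in each cell cannot be told apart.

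As background, hepatocytes assemble very-low-density lipoprotein (VLDL) around the large apolipoprotein B, which the microsomal triglyceride transfer protein loads with lipid in the endoplasmic reticulum. Apolipoproteins A1 and A2 are the main proteins of high-density lipoprotein (HDL), and apolipoprotein M carries sphingosine 1-phosphate on it. The smaller C apolipoproteins, A5 and E move between particles. C2 activates lipoprotein lipase, C3 slows the removal of triglyceride-rich particles, A5 lowers plasma triglyceride, and E is a ligand of the receptors that take remnants up. Apolipoprotein A4 is made by the intestine and, in mice, by the liver too. During a fast the liver receives fatty acids from adipose tissue and returns part of them to plasma as VLDL.

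Of the 10 genes, 6 lie in 2 apolipoprotein clusters. Coordinates are those of the deposited table, which uses GRCm38. On chromosome 9, *Apoa1* (chr9:46228580-46230466), *Apoc3* (chr9:46232933-46235636), *Apoa4* (chr9:46240696-46243459) and *Apoa5* (chr9:46268633-46271919) span 43340 bp, with *Apoc3* on the minus strand and the others on the plus strand. On chromosome 7, *Apoc2* (chr7:19671579-19677941) and *Apoe* (chr7:19696109-19699188) are at the ends of a cluster of 27610 bp that also holds *Apoc4* and *Apoc1*. *Apoa2* (chr1:171225054-171226379), *Apob* (chr12:7977648-8016835), *Apom* (chr17:35128997-35132050) and *Mttp* (chr3:138089854-138144968) lie apart. The expected counts were fractional in 10 of 12 libraries for *Apoa4*, in all 12 for *Apoc2* and in 2 for *Mttp*. These 3 genes overlap others (*Gm10680*, *Gm44805*, and *Trmt10a* with *Gm43691*), and their values are therefore less certain than those of the other 7 genes, which were whole in every library.

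The bases in front of 4 of the genes are shown because these genes were among those with higher counts after fasting (below). They are stretches of the promoter windows of RefSeq for GRCm38.p6, all on the plus strand, and each ends at the base before the gene's deposited start. The 102 bases of *Apoa4* are chr9:46240594-46240695, the 200 bases of *Apoa1* are chr9:46228380-46228579, the 250 bases of *Apoa5* are chr9:46268383-46268632, and the 221 bases of *Apob* are chr12:7977427-7977647. Capitals mark letter matches to the motifs searched, which are an E-box (CACGTG) and a TATA box (TATAAA) in *Apoa5* and a TATA box (TATAAA) in *Apob*.
*Apoa4*: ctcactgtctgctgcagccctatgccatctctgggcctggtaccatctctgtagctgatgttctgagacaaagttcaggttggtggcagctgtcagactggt
*Apoa1*: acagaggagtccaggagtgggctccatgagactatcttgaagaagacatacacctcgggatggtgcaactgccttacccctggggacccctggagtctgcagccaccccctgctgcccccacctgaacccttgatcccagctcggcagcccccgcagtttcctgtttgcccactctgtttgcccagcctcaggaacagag
*Apoa5*: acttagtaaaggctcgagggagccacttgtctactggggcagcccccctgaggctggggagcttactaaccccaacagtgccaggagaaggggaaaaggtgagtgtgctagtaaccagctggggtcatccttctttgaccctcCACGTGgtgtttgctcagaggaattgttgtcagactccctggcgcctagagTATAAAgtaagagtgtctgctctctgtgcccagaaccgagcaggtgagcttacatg
*Apob*: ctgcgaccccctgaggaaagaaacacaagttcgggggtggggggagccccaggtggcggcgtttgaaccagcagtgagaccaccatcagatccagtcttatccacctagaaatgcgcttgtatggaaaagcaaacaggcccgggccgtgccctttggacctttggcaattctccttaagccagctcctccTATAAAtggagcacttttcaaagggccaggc
Both strands of the whole windows, from 250 bases before the RefSeq start to 50 bases after it, were searched in the 9 genes that matched, without *Apoc3*. TATAAA was found in *Apoa2*, *Apoa5* and *Apob* and in 13.6% of all 32851 windows. CACGTG was in *Apoa5* and in 7.15% of all windows. TGACG, the core of the cAMP response element, was in *Apoa2*, *Apoc2* and *Mttp* and in 20.8% of all windows. The forkhead element TGTTTAC was in *Apoa2* (3.65% of windows), the nuclear receptor letters AGGTCA were in *Apoc2* (16.3%), and the GC box GGGCGG was in *Mttp* (35.7%). The HNF4 element CAAAGTCCA (0.475% of windows) and the direct repeat of AGGTCA with a spacer of 1 base (0.0396%), which overlaps AGGTCA itself, matched no letters in the 9 windows. Such matches describe letters only, and sites that differ from these letters at any base were not searched for. The RefSeq start lay inside the deposited gene by 50 bases for *Apoa1*, 148 for *Apoa4*, 29 for *Apob*, 249 for *Apom* and 1550 for *Mttp*.

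Together the 10 genes took up 3.92% ± 0.252 (SD, n = 3) of all counts in fed *Nts*+/+ livers, 4.10% ± 0.333 in fasted *Nts*+/+ livers, 3.48% ± 0.452 in fed *Nts*-/- livers and 4.29% ± 0.116 in fasted *Nts*-/- livers. Neither fasting comparison could pass a threshold of 0.05, since 3 mice against 3 allow no two-sided exact permutation *p* below 0.1. The exact permutation *p* for fasting was 0.6 in *Nts*+/+ and 0.1 in *Nts*-/-, and that for genotype was 0.3 in fed and 0.4 in fasted livers. To compare genes with each other, levels were divided by the length of the canonical transcript in GENCODE vM39 and are given as TMM-normalized CPM per kb. *Apoc3* was left out of this order, because its 11 annotated transcripts run from 323 to 2434 bases and its level per kb depends on the choice. Genes that were kept share this limit. The annotated transcripts run from 317 to 3559 bases for *Apoa2*, 456 to 3088 for *Apoe* and 1118 to 13934 for *Apob*. The order below therefore holds for the canonical transcripts only.

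*Apoa2*, *Apoe* and *Apoa1* were the 3 highest genes per kb in all 4 groups, and *Mttp* was the lowest of the 9. In fed *Nts*+/+ livers, *Apoa2* was at 13067 ± 325 CPM per kb (SD, n = 3), *Apoe* at 9035 ± 1673 and *Apoa1* at 3956 ± 536, and no mouse's values overlapped between these neighbors. *Apoa5* followed at 516 ± 127, *Apom* at 319 ± 18.4, *Apoc2* at 244 ± 16.1, *Apob* at 185 ± 16.9, *Apoa4* at 105 ± 63.1 and *Mttp* at 72.8 ± 10.7. Among these, the ranges of *Apob* and *Apoa4* and those of *Apoa4* and *Mttp* overlapped. *Apoa4* was the gene whose place moved most. It was the eighth of 9 in fed livers of either genotype and the fourth in fasted ones, at 1433 ± 602 CPM per kb in *Nts*+/+ and 1462 ± 354 in *Nts*-/-. After fasting, the ranges of *Apoe* and *Apoa1* overlapped in both genotypes, as did those of *Apoc2* and *Apob* and those of *Apob* and *Apom*. In fasted *Nts*+/+ livers the fourth place of *Apoa4* was not separate from the fifth. Its lowest value there was 737 CPM per kb, and the highest of *Apoa5* was 815. Of the 8 pairs of neighbors in the order, 2 overlapped in fed and 4 in fasted *Nts*+/+ livers, and 3 overlapped in fed and 3 in fasted *Nts*-/- livers.

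**Figure D1:**
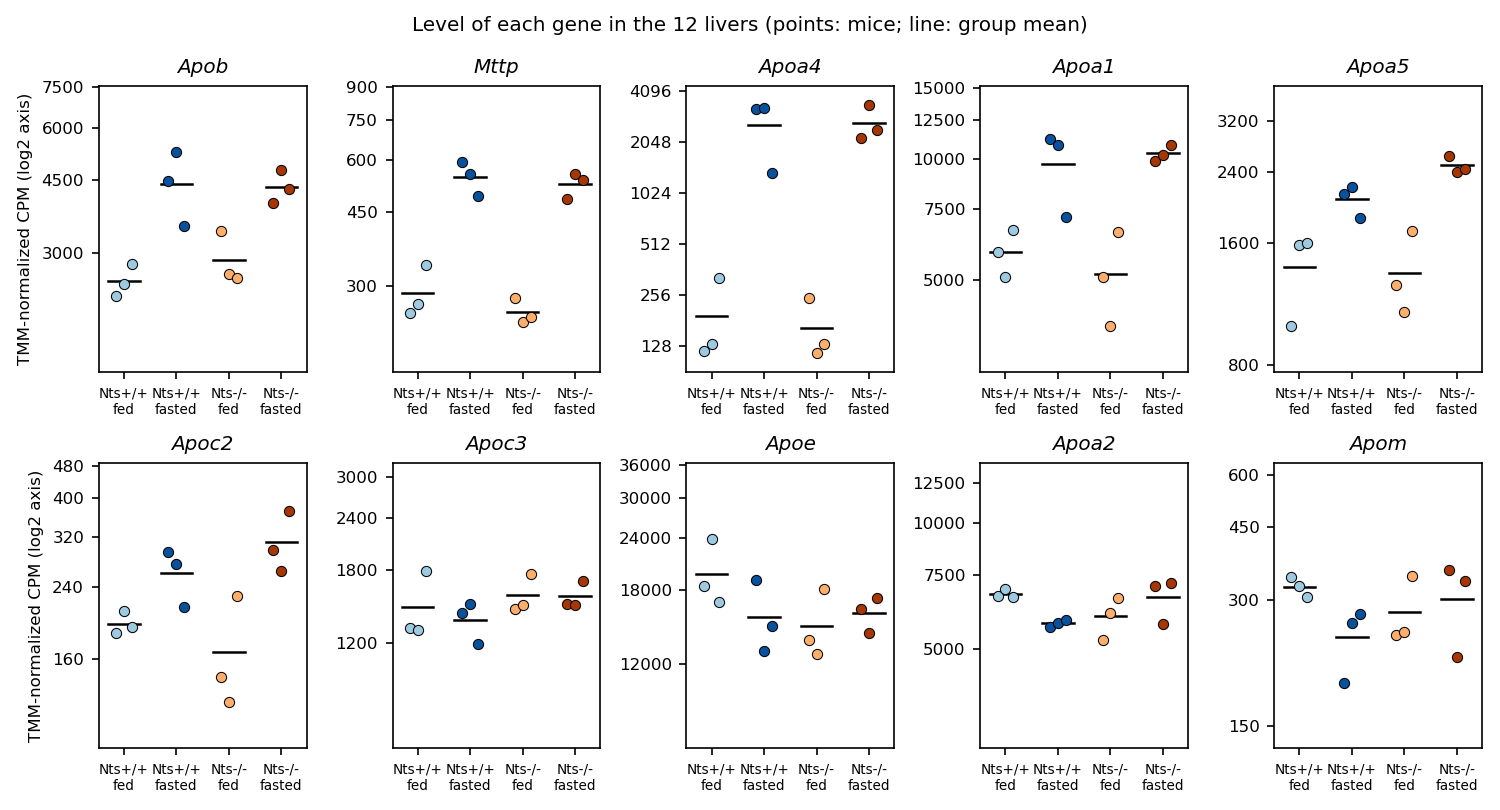
Level of each of the 10 genes in every liver, as TMM-normalized CPM on a log2 axis whose range differs between panels, with 3 mice per group as points and the group mean as a line. *Apoa4* went from between 117 and 323 CPM in the 6 fed livers to between 1338 and 3380 in the 6 fasted livers, and the fed and fasted livers of *Apoc3* overlapped in both genotypes.

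Fasting raised the genes of VLDL assembly, *Apob* and *Mttp*, and the apolipoprotein genes *Apoa4* and *Apoa1* in both genotypes, and also *Apoa5* and *Apoc2* in *Nts*-/- livers. No member was called lower. In edgeR's quasi-likelihood test, with Benjamini-Hochberg adjustment over all tested genes and a threshold of 0.05, 4 of the 10 genes were higher and 0 lower in fasted *Nts*+/+ livers, where 18.1% of all tested genes were called (8.91% higher and 9.19% lower). In *Nts*-/- livers, 6 of the 10 were higher and 0 lower, where 16.8% of all tested genes were called (7.7% higher and 9.14% lower). *Apob*, *Mttp*, *Apoa4* and *Apoa1*, 4 of the 10, were called in both genotypes, as were 10.7% of all tested genes. The median log2 fold change of the 10 genes was 0.49 in *Nts*+/+ and 0.73 in *Nts*-/-, against −0.0032 and −0.011 over all tested genes. Without adjustment, 5 members had a *p* under 0.05 in *Nts*+/+ (32.5% of all tested genes) and 6 in *Nts*-/- (31.7%).

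*Apob*, the structural protein of VLDL, had 2364, 2538 and 2831 CPM in the fed *Nts*+/+ livers (mice 254, 257 and 323) and 4473, 5257 and 3478 CPM in the fasted ones (265, 282 and 322). The *Nts*-/- livers had 3382, 2673 and 2614 CPM when fed (277, 303 and 319) and 3961, 4742 and 4266 CPM when fasted (284, 290 and 295). Every fasted liver was above every fed liver of its genotype, and mouse 277 was the highest of the 6 fed livers. The log2 fold change with its standard error (SE) was 0.77 (SE 0.17, edgeR adjusted *p* = 0.00869) in *Nts*+/+ and 0.58 (SE 0.17, edgeR adjusted *p* = 0.0352) in *Nts*-/-, or 1.708-fold and 1.496-fold. The *Nts*+/+ call was lost without mouse 282 (edgeR adjusted *p* = 0.0532). The *Nts*-/- call was lost with library totals in place of TMM (edgeR adjusted *p* = 0.102) and without any 1 of mice 303, 319, 284, 290 and 295 (edgeR adjusted *p* between 0.0574 and 0.116).

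*Mttp*, whose product transfers lipid onto the growing apolipoprotein B, had 258, 271 and 337 CPM in fed and 594, 556 and 492 CPM in fasted *Nts*+/+ livers, in the same order of mice. The *Nts*-/- livers had 280, 246 and 252 CPM when fed and 484, 555 and 538 CPM when fasted. The 6 fasted livers lay between 484 and 594 CPM and the 6 fed livers between 246 and 337 CPM, with no overlap. The log2 fold change was 0.92 (SE 0.14, edgeR adjusted *p* = 0.000755) in *Nts*+/+ and 1.02 (SE 0.14, edgeR adjusted *p* = 0.000314) in *Nts*-/-, or 1.90-fold and 2.03-fold. The calls on *Mttp* held under all alternatives in both genotypes. The log2 ratio of *Mttp* to *Apob* within a mouse had a mean of −3.16 in fed and −2.99 in fasted *Nts*+/+ livers (two-sided exact permutation *p* = 0.4, groups overlapping) and of −3.47 and −3.04 in *Nts*-/- livers (exact permutation *p* = 0.1, the smallest possible).

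*Apoa4* showed the largest fold change of the 10 genes. Its level was 119, 131 and 323 CPM in fed and 3214, 3250 and 1338 CPM in fasted *Nts*+/+ livers (mice 254, 257, 323, 265, 282 and 322). Among *Nts*-/- livers it was 245, 117 and 131 CPM when fed (277, 303 and 319) and 2167, 3380 and 2411 CPM when fasted (284, 290 and 295). The lowest fasted liver, mouse 322, was above the highest fed liver, mouse 323. The log2 fold change was 3.77 (SE 0.52, edgeR adjusted *p* = 0.00113) in *Nts*+/+ and 4.01 (SE 0.52, edgeR adjusted *p* = 0.000726) in *Nts*-/-, or 13.6-fold and 16.1-fold. Without mouse 323 the value in *Nts*+/+ was 4.38, the only case among members past the threshold in which leaving out 1 library moved the fold by over 1.5 times. The spread between mice was wide, with SDs of 59.9% of the mean in fed and 42.0% in fasted *Nts*+/+ livers and 42.8% and 24.2% in *Nts*-/- livers. *Gm10680*, which overlaps *Apoa4* and had a mean of only 3.09 CPM, was called too (log2 fold changes of 3.71 and 3.58, edgeR adjusted *p* = 0.0405 and 0.0369).

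Since the intestine also makes apolipoproteins A4 and B, enterocyte markers were counted beside them. Of 10 such markers, 7 had counts and *Sis*, *Cdx1* and *Cdx2* had 0 in every library, where a floor of 3 counts stands for 0.0663 to 0.136 CPM before TMM scaling. Only 2 of the 10, *Fabp2* and *Lgals4* (mean 6.24 CPM), passed the filter on low counts. *Vil1* had a mean of 0.114 CPM, and *Alpi*, *Muc2*, *Reg3b* and *Reg3g* had means between 0.00275 and 0.011 CPM, below that floor. The summed level of the list was 43.1 to 96.8 CPM in fed and 112 to 148 CPM in fasted *Nts*+/+ livers, and 51.04 to 57.28 CPM in fed and 164 to 212 CPM in fasted *Nts*-/- livers. Most of that sum was *Fabp2* (mean 107 CPM), the only marker of the list to pass the test, with log2 fold changes of 0.97 (edgeR adjusted *p* = 0.0165) in *Nts*+/+ and 1.83 (edgeR adjusted *p* = 0.000444) in *Nts*-/-, and it is named here after its values were seen. The part of these genes in the *Apoa4* and *Apob* results was not tested.

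*Apoa1*, the main protein of HDL, had 5870, 5070 and 6659 CPM in fed and 11192, 10827 and 7150 CPM in fasted *Nts*+/+ livers, in the order of mice used above. Among *Nts*-/- livers the values were 5074, 3830 and 6570 CPM when fed and 9901, 10199 and 10850 CPM when fasted. All fasted livers were above all fed livers, and mouse 322 was the lowest of the 6 fasted livers. The log2 fold change was 0.73 (SE 0.21, edgeR adjusted *p* = 0.0316) in *Nts*+/+ and 1.00 (SE 0.22, edgeR adjusted *p* = 0.00694) in *Nts*-/-. The *Nts*+/+ call was lost in a fit of only those 2 groups (edgeR adjusted *p* = 0.0513) and without any 1 of mice 254, 257, 265 and 282 (edgeR adjusted *p* between 0.0900 and 0.124). The *Nts*-/- call held under all alternatives.

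*Apoa5*, a modulator of plasma triglyceride expressed in the liver, had 998, 1583 and 1599 CPM in fed and 2107, 2202 and 1840 CPM in fasted *Nts*+/+ livers. The *Nts*-/- livers had 1257, 1080 and 1709 CPM when fed and 2622, 2391 and 2441 CPM when fasted. The groups did not overlap in either genotype. The log2 fold change was 0.88 (SE 0.20, edgeR adjusted *p* = 0.00967) in *Nts*-/- and 0.56 (SE 0.20) in *Nts*+/+, where the adjusted *p* was 0.0713 in edgeR, 0.0307 in DESeq2 and 0.0499 in edgeR with no filter on low counts. *Apoc2*, the cofactor of lipoprotein lipase, had 185, 210 and 191 CPM in fed and 293, 274 and 215 CPM in fasted *Nts*+/+ livers. In *Nts*-/- livers it had 144, 125 and 229 CPM when fed and 297, 263 and 372 CPM when fasted, so that mouse 319 stood above the other 2 fed livers. Its log2 fold change was 0.90 (SE 0.21, edgeR adjusted *p* = 0.0103) in *Nts*-/- and 0.42 (SE 0.21, edgeR adjusted *p* = 0.185) in *Nts*+/+. Without mouse 277 the *Nts*-/- call was lost (edgeR adjusted *p* = 0.0550), and after removal of the trend with gene length the *Nts*+/+ value passed (0.56, edgeR adjusted *p* = 0.0394). Passing the test in *Nts*-/- livers alone does not show that *Apoa5* and *Apoc2* responded differently between genotypes, and the test of that difference is given below.

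**Figure D2:**
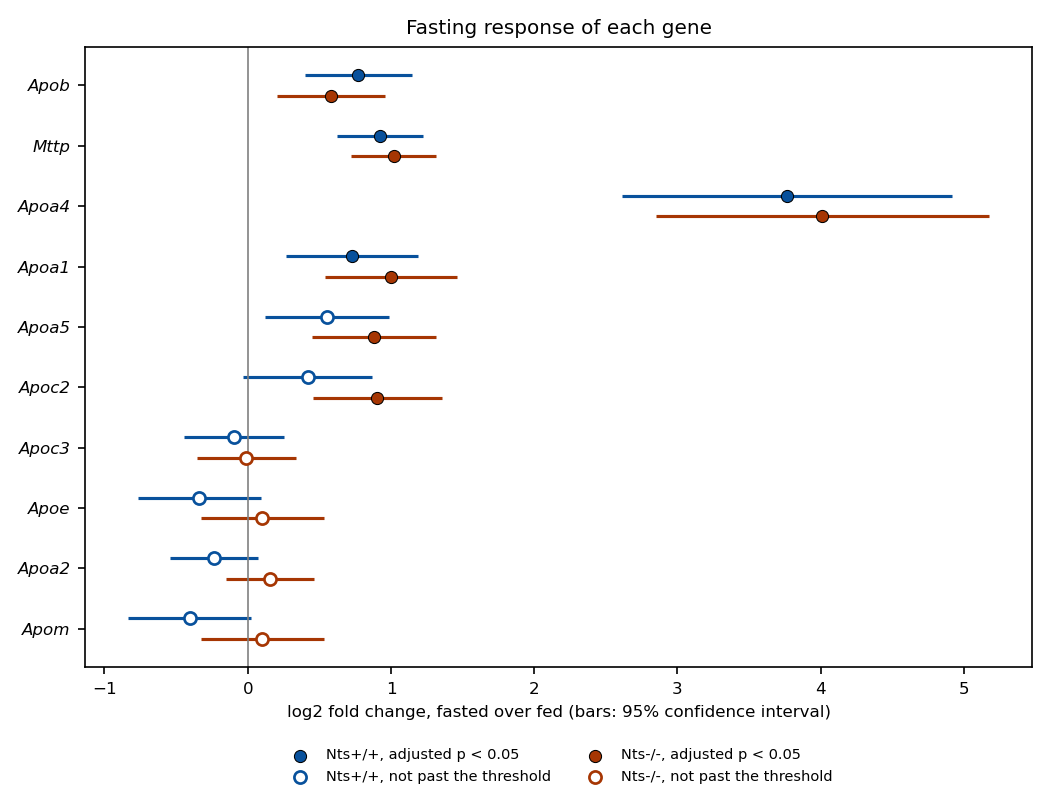
Log2 fold change of fasted over fed livers for each gene in *Nts*+/+ (blue) and *Nts*-/- (brown) mice, with 3 mice per group, 95% confidence intervals as bars, and filled points for an edgeR adjusted *p* under 0.05. *Apoa4* is at 3.77 and 4.01, the other called genes lie between 0.58 and 1.02, and the intervals of *Apoc3*, *Apoe*, *Apoa2* and *Apom* include 0 in both genotypes.

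The remaining 4 genes, *Apoc3*, *Apoe*, *Apoa2* and *Apom*, passed the test in neither genotype. *Apoc3*, whose product opposes that of *Apoc2*, had 1307, 1290 and 1792 CPM in fed and 1420, 1489 and 1198 CPM in fasted *Nts*+/+ livers, and 1450, 1480 and 1764 CPM in fed and 1495, 1480 and 1690 CPM in fasted *Nts*-/- livers. The fed and fasted ranges overlapped in both genotypes. Its log2 fold change was −0.096 (95% confidence interval −0.44 to 0.25) in *Nts*+/+ and −0.0092 (−0.36 to 0.34) in *Nts*-/-, and the sign turned under alternatives in each.

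*Apoe*, the receptor ligand of remnant particles, was the gene with the most counts of the 10. It had 18398, 23827 and 16893 CPM in fed and 19104, 12866 and 14762 CPM in fasted *Nts*+/+ livers, with a log2 fold change of −0.34 (95% confidence interval −0.77 to 0.090, edgeR adjusted *p* = 0.262). In *Nts*-/- livers it had 13674, 12693 and 18087 CPM when fed and 16230, 14248 and 17228 CPM when fasted, with a log2 fold change of 0.10 (−0.33 to 0.53), which turned to −0.059 with library totals. Macrophages also express this gene. The 8 Kupffer cell markers, all with counts, summed to 500 to 566 CPM in fed and 255 to 436 CPM in fasted *Nts*+/+ livers, and to 309 to 439 CPM in fed and 314 to 490 CPM in fasted *Nts*-/- livers. Of these markers, 1 passed the test of fasting in *Nts*+/+ and 0 in *Nts*-/-, and their part in the *Apoe* values was not tested.

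*Apoa2*, the other main HDL protein, had SDs of 2.49% and 2.16% of the mean in fed and fasted *Nts*+/+ livers and of 11.5% and 12.0% in fed and fasted *Nts*-/- livers. It had 6680, 6963 and 6663 CPM in fed and 5623, 5771 and 5870 CPM in fasted *Nts*+/+ livers, so that all 3 fasted livers were below all 3 fed livers. The log2 fold change of −0.23 (95% confidence interval −0.54 to 0.075, edgeR adjusted *p* = 0.283) did not pass. In *Nts*-/- livers the gene had 5254, 6080 and 6623 CPM when fed and 7060, 5744 and 7196 CPM when fasted (log2 fold change 0.16, −0.15 to 0.46, and −0.0072 with library totals). *Apom* had 342, 324 and 305 CPM in fed and 190, 264 and 279 CPM in fasted *Nts*+/+ livers, again without overlap, and its log2 fold change of −0.40 (−0.83 to 0.023, edgeR adjusted *p* = 0.178) did not pass either. It was 0.10 (−0.32 to 0.53) in *Nts*-/- livers, from 248, 252 and 343 CPM when fed to 354, 219 and 333 CPM when fasted, and −0.060 with library totals. In all, the 2 groups of mice did not overlap for 6 members that were higher (*Apob*, *Mttp*, *Apoa4*, *Apoa1*, *Apoa5* and *Apoc2*) and 2 that were lower after fasting in *Nts*+/+, where 18.1% and 17.9% of all tested genes did the same. In *Nts*-/- they did not overlap for those 6 members, all higher (17.1% of all tested genes), and for 0 lower (18.1%).

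The cluster on chromosome 9 held both called and uncalled genes. *Apoa1* and *Apoa4* were called in both genotypes, *Apoa5* in *Nts*-/- livers, and *Apoc3*, which lies between *Apoa1* and *Apoa4* on the opposite strand, in neither. Measured within each mouse, the log2 ratio of *Apoa1* to *Apoc3* went from between 1.89 and 2.17 in fed to between 2.58 and 2.98 in fasted *Nts*+/+ livers, and from between 1.37 and 1.90 to between 2.68 and 2.79 in *Nts*-/- livers. The log2 ratio of *Apoa4* to *Apoc3* was on average 3.90 higher in fasted than in fed *Nts*+/+ livers and 4.07 higher in *Nts*-/- livers, and that of *Apoa5* to *Apoc3* was 0.67 and 0.91 higher. None of these ratios overlapped between fed and fasted livers, each with a two-sided exact permutation *p* of 0.1, the smallest possible with 3 mice against 3. They are taken from the same counts as the tests above and are not independent of them. Of 6 other genes within 0.1 Mb, 4 were tested. *Sik3*, on the *Apoa1* side, was called in *Nts*+/+ (log2 fold change 0.49, edgeR adjusted *p* = 0.0224) but not in *Nts*-/- (0.31, edgeR adjusted *p* = 0.128), *Gm10680* overlaps *Apoa4*, and *Zpr1* and *Bud13* on the *Apoa5* side had values between −0.12 and −0.065.

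In the cluster on chromosome 7, *Apoc4* was called higher in both genotypes, with log2 fold changes of 0.50 (SE 0.16, edgeR adjusted *p* = 0.0429) in *Nts*+/+ and 0.59 (SE 0.16, edgeR adjusted *p* = 0.0216) in *Nts*-/-. *Apoc2*, beside it, was called in *Nts*-/- livers, and *Apoc1* (−0.32 and −0.16) and *Apoe* were called in neither. The log2 ratio of *Apoc2* to *Apoe* within a mouse was 0.75 higher in fasted *Nts*+/+ livers and 0.83 higher in fasted *Nts*-/- livers, without overlap (exact permutation *p* = 0.1 each, the smallest possible). Of 14 other genes within 0.1 Mb, 10 were tested. *Tomm40*, next to *Apoe*, was higher (0.78, edgeR adjusted *p* = 0.00226) and *Gm44805*, which overlaps *Apoc2* and *Apoc4*, was lower (−0.54, edgeR adjusted *p* = 0.0160) in fasted *Nts*+/+ livers. Neither passed in *Nts*-/- livers, where 0 of the 10 neighbors did. The other 8, *Gemin7*, *Zfp296*, *Clasrp*, *Relb*, *Clptm1*, *Nectin2*, *Bcam* and *Cblc*, passed in neither genotype.

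**Figure D3:**
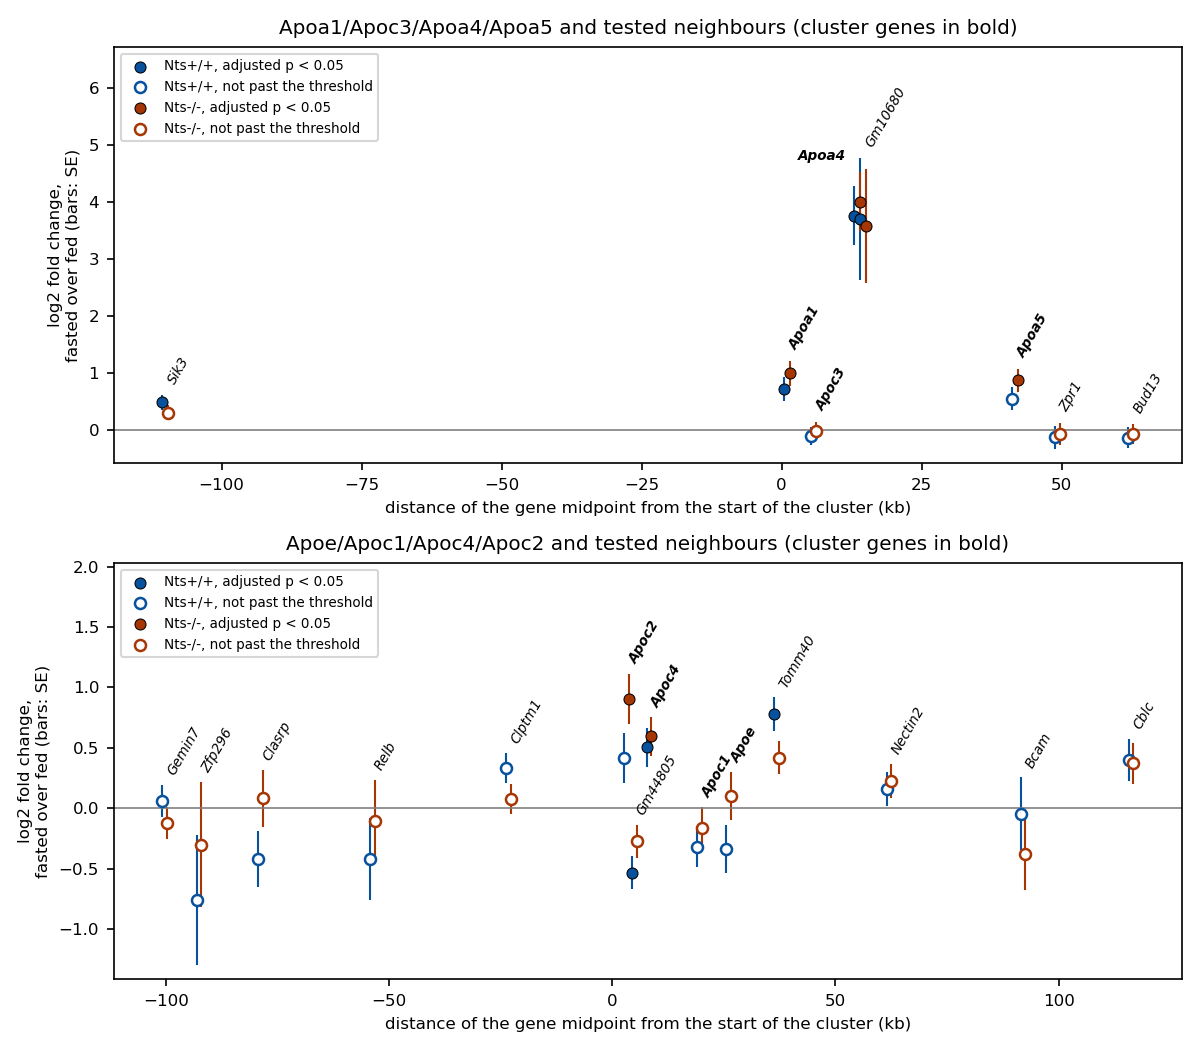
Fasting response of the cluster genes (bold) and their tested neighbors by distance of the gene midpoint from the start of each cluster in kb, with log2 fold changes in *Nts*+/+ (blue) and *Nts*-/- (brown) mice, standard errors as bars, and filled points for an edgeR adjusted *p* under 0.05. On chromosome 9 (top) *Apoc3* lies near 0 between *Apoa1* and *Apoa4*, and on chromosome 7 (bottom) *Apoc2* and *Apoc4* lie above *Apoc1* and *Apoe*.

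The 5 lists of related genes are read against the 18.1% of all tested genes called in *Nts*+/+ and the 16.8% called in *Nts*-/-, with medians over all tested genes of −0.0032 and −0.011. Of 20 genes of VLDL lipidation and export, all tested, 3 rose and 0 fell in *Nts*+/+ (median log2 fold change 0.14) and 2 rose and 3 fell in *Nts*-/- (median 0.17). *Dgat1*, which makes triglyceride in the endoplasmic reticulum, rose by 0.80 and 0.82 on the log2 scale (edgeR adjusted *p* = 0.000605 and 0.000415). *Dgat2* and *Tm6sf2* were lower in fasted *Nts*-/- livers (−0.57 and −0.48, edgeR adjusted *p* = 0.0148 and 0.0171). In *Nts*+/+ livers they were at −0.34 and −0.33 and did not pass (edgeR adjusted *p* = 0.114 and 0.0780). Group means of *Dgat2* were 300 to 446 CPM, against 14.9 to 27.8 CPM for *Dgat1*. The coat protein gene *Sec23a*, of the vesicles that leave the endoplasmic reticulum, rose by 0.71 and 0.69 (edgeR adjusted *p* = 0.00255 and 0.00288). *Sar1b*, the GTPase that starts this coat, rose by 0.64 in *Nts*+/+ (edgeR adjusted *p* = 0.0322) and was at 0.47 in *Nts*-/-, without passing (edgeR adjusted *p* = 0.103). *Sort1*, a sorting receptor that binds apolipoprotein B, was lower in fasted *Nts*-/- livers (−0.99, edgeR adjusted *p* = 0.00864). In *Nts*+/+ livers it was at −0.39 and did not pass (edgeR adjusted *p* = 0.236). In these lists too, a call in 1 genotype alone does not show a difference between genotypes. No tested gene passed the test of that difference (below).

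Among 12 receptors and their regulators, all tested, 1 rose and 2 fell in *Nts*+/+ (median −0.094) and 2 rose and 1 fell in *Nts*-/- (median −0.0088). *Cd36*, a fatty acid and lipoprotein receptor, rose by 1.85 and 1.99 (edgeR adjusted *p* = 0.00133 and 0.000748). *Lsr*, a receptor of triglyceride-rich particles, was lower in *Nts*+/+ (−1.28, edgeR adjusted *p* = 0.000293) and in *Nts*-/- (−1.21, edgeR adjusted *p* = 0.000317). *Lrpap1*, a chaperone of lipoprotein receptors, was lower in *Nts*+/+ (−0.40, edgeR adjusted *p* = 0.0395), and the ubiquitin ligase gene *Mylip* rose by 0.70 in *Nts*-/- (edgeR adjusted *p* = 0.0100). Without passing, *Lrpap1* was at −0.29 in *Nts*-/- (edgeR adjusted *p* = 0.134) and *Mylip* at 0.42 in *Nts*+/+ (edgeR adjusted *p* = 0.0866).

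For 16 genes of HDL formation and plasma lipases, all tested, 1 rose and 1 fell in *Nts*+/+ (median 0.14) and 4 rose and 2 fell in *Nts*-/- (median −0.053). *Lcat*, which esterifies cholesterol on HDL with apolipoprotein A1 as its cofactor, rose by 0.55 in *Nts*+/+ (edgeR adjusted *p* = 0.0105) and by 0.43 in *Nts*-/- (edgeR adjusted *p* = 0.0350). Hepatic lipase, *Lipc*, was lower in *Nts*+/+ (−0.74, edgeR adjusted *p* = 0.00634) and in *Nts*-/- (−0.64, edgeR adjusted *p* = 0.0136). The lipoprotein lipase inhibitors moved apart in *Nts*-/- livers, where *Angptl4* rose by 1.52 (edgeR adjusted *p* = 0.0400) and *Angptl8* was lower (−2.79, edgeR adjusted *p* = 0.0184). In *Nts*+/+ livers they were at 0.79 and −0.92 and did not pass (edgeR adjusted *p* = 0.240 and 0.329). *Abcg8*, a sterol exporter into bile, rose by 0.97 in *Nts*-/- (edgeR adjusted *p* = 0.0103) and was at 0.56 in *Nts*+/+, without passing (edgeR adjusted *p* = 0.0965). Of 16 other apolipoproteins and lipoprotein passengers, 15 were tested, and 1 rose and 2 fell in *Nts*+/+ (median −0.11) and 1 rose and 0 fell in *Nts*-/- (median −0.074). The gene that rose was *Apoc4*, and those that fell were *Saa2* (−1.14, edgeR adjusted *p* = 0.00763) and *Saa4* (−1.13, edgeR adjusted *p* = 0.0202), serum amyloid A proteins that ride on HDL. In *Nts*-/- livers *Saa2* and *Saa4* were at −0.48 and −0.85 and did not pass (edgeR adjusted *p* = 0.203 and 0.0667).

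Of 24 transcription regulators listed for apolipoprotein genes, all tested, 3 rose and 3 fell in *Nts*+/+ (median 0.15) and 1 rose and 3 fell in *Nts*-/- (median 0.10). *Srebf1* and *Mlxipl*, which drive lipogenic genes after feeding, were lower in both genotypes, with log2 fold changes of −2.90 and −3.32 (edgeR adjusted *p* = 0.000622 and 0.000254) and of −1.83 and −1.07 (edgeR adjusted *p* = 0.000549 and 0.0107). *Srebf2*, the regulator of cholesterol synthesis genes, was lower in *Nts*+/+ (−0.64, edgeR adjusted *p* = 0.0142) and in *Nts*-/- (−1.29, edgeR adjusted *p* = 0.000176), and *Cebpb* rose by 1.22 in *Nts*+/+ (edgeR adjusted *p* = 0.0364). In *Nts*-/- livers *Cebpb* was at 1.07 and did not pass (edgeR adjusted *p* = 0.0618). Also higher in *Nts*+/+ were *Ppara* (0.89, edgeR adjusted *p* = 0.0119) and *Nr1h4* (0.51, edgeR adjusted *p* = 0.0419). In *Nts*-/- these 2 were at 0.60 and 0.39 and did not pass (edgeR adjusted *p* = 0.0687 and 0.114). *Creb3l3* rose by 0.96 in *Nts*-/- (edgeR adjusted *p* = 0.00664) and was at 0.48 in *Nts*+/+, without passing (edgeR adjusted *p* = 0.116).

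**Figure D4:**
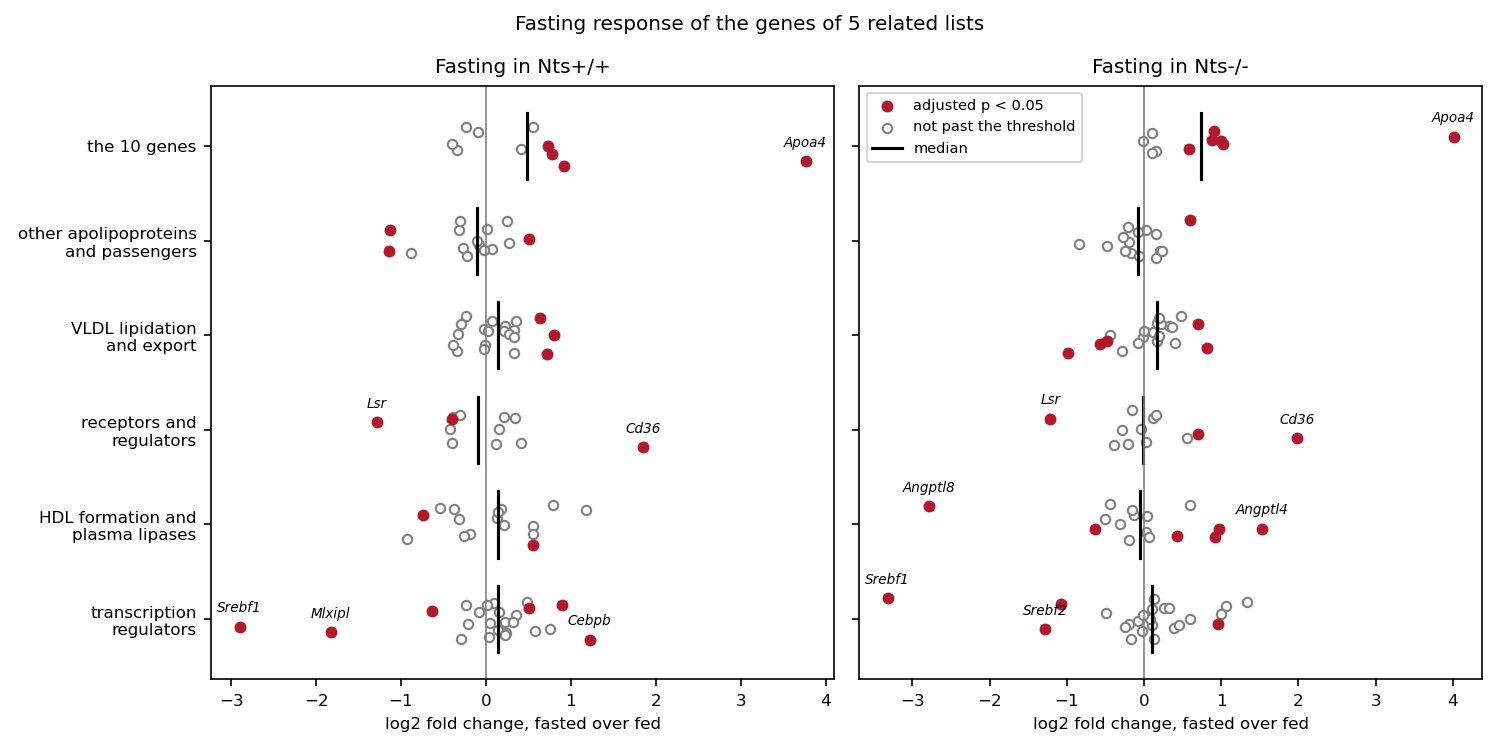
Log2 fold change of fasted over fed livers for the 10 genes and the tested genes of 5 related lists in *Nts*+/+ (left) and *Nts*-/- (right) mice, with genes at an edgeR adjusted *p* under 0.05 in red, the others open, and the median of each list as a line. The medians of the 10 genes are 0.49 and 0.73, and those of the lists lie between −0.11 and 0.17.

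For the 6 members called in a fasting comparison, the tested genes whose level followed most closely over the 12 mice were found by the root mean square difference of log2 CPM, each gene centered on its own mean. The 3 nearest to *Mttp* were *Acad11*, *Hsd17b4* and *Gna12*, at 0.040, 0.092 and 0.096, against an SD of 0.50 for *Mttp* itself. Those of *Apob* were *Fam234b* (0.069), *Fam160b1* (0.10) and *Slc20a2* (0.12), against its SD of 0.38. *Apoa4*, with an SD of 2.04, was followed less closely by *Aqp4* (0.35), *Cyp4a14* (0.45) and *Cyp4a10* (0.45), whose own log2 fold changes after fasting were between 3.28 and 4.38. *Apoa1* was nearest to *Sun2* (0.15), *Creb3l3* (0.16) and *Cpt2* (0.17). The nearest to *Apoa5* were *1110008F13Rik*, *Creb3* and *Atf5* (0.16, 0.16 and 0.17), and those to *Apoc2* were *Acadvl*, *Etfb* and *Creb3* (0.17, 0.17 and 0.18). These distances describe 12 mice in 4 groups, fed and fasted livers pooled.

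Genotype moved none of the 10 genes past the threshold in either feeding state. In fed livers, 0 of the 10 and 0 of all 13812 tested genes were called between the libraries labelled *Nts*-/- and *Nts*+/+ (0% called), and before adjustment 876 genes (6.34%) but 0 members had a *p* under 0.05. In fasted livers, 0 of the 10 and 0 of all tested genes were called (0%), and before adjustment it was 685 genes (4.96%) and 0 members. The Wald test of DESeq2 also called 0 members in each, and of the 5 related lists 0 genes passed in either state. The median log2 fold change of the members was −0.18 in fed livers (0.010 over all tested genes), with 8 of 10 below 0, and 0.13 in fasted livers (−0.0087), with 8 of 10 above 0.

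The largest difference in fed livers was that of *Apoe*, at −0.41 (95% confidence interval −0.84 to 0.018, edgeR adjusted *p* = 0.777), with 12693 to 18087 CPM in the livers labelled *Nts*-/- and 16893 to 23827 CPM in those labelled *Nts*+/+, which overlapped. The Kupffer cell markers given above were also lower in these livers, at 309 to 439 CPM against 500 to 566 CPM, and their part was not tested. Of the other members, only *Apoa2* did not overlap, with 5254 to 6623 CPM against 6663 to 6963 CPM (log2 fold change −0.18, −0.49 to 0.13), and 4.81% of all tested genes were higher and 5.85% lower without overlap. In fasted livers the largest difference was that of *Apom*, at 0.31 (−0.12 to 0.73, edgeR adjusted *p* = 0.917). *Apoa5* alone did not overlap there, with 2391 to 2622 CPM in the livers labelled *Nts*-/- and 1840 to 2202 CPM in the others (0.28, −0.15 to 0.71), and 5.29% of all tested genes were higher and 6.88% lower without overlap.

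Of the assembly genes, *Mttp* had −0.15 (−0.45 to 0.14) in fed and −0.059 (−0.35 to 0.24) in fasted livers. *Apob* had 0.16 (−0.21 to 0.54) and −0.026 (−0.40 to 0.35). The interval of *Apoa4* was wide in both states, at −0.22 (−1.25 to 0.81) and 0.029 (−1.001 to 1.058), and both reached past −1 at the lower end. The other members lay between −0.23 and 0.10 in fed and between 0.030 and 0.25 in fasted livers.

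**Figure D5:**
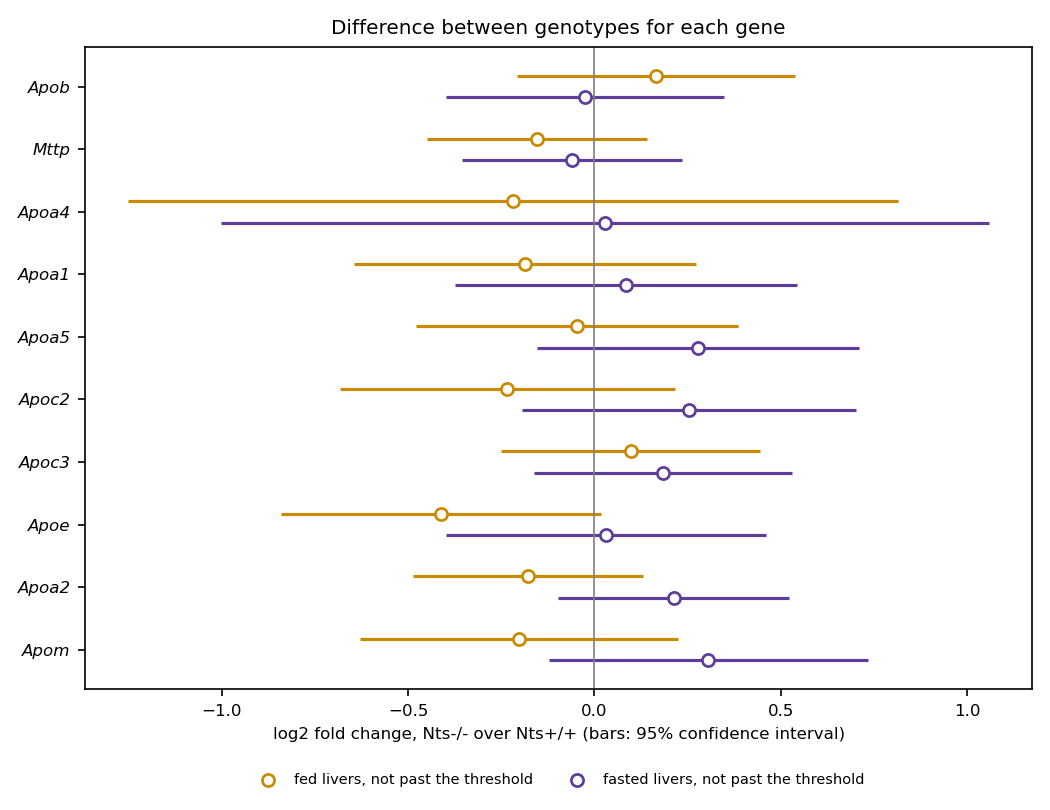
Log2 fold change of livers labelled *Nts*-/- over those labelled *Nts*+/+ for each gene in fed (ochre) and fasted (purple) mice, with 3 mice per group and 95% confidence intervals as bars. All 20 intervals include 0, the widest are those of *Apoa4*, and the point estimates run from −0.41 for *Apoe* in fed to 0.31 for *Apom* in fasted livers.

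Whether the fasting response itself differed between genotypes was tested as a difference of the responses over all 4 groups. None of the 10 genes and none of all 13812 tested genes passed (0% called), and 0 members were under an unadjusted *p* of 0.05, as were 663 genes (4.8%). DESeq2 also called 0 members. The response in *Nts*-/- minus that in *Nts*+/+ was above 0 for 9 of the 10 genes, with a median of 0.30 (−0.020 over all tested genes). For *Apoc2* it was 0.49 (95% confidence interval −0.15 to 1.12, edgeR adjusted *p* = 0.897) and for *Apoa5* 0.32 (−0.29 to 0.94, edgeR adjusted *p* = 0.901). Above 0 as well were those of *Apom*, at 0.51 (−0.097 to 1.11), *Apoe*, at 0.44 (−0.17 to 1.05), and *Apoa2*, at 0.39 (−0.047 to 0.83), genes that were below 0 in *Nts*+/+ and above 0 in *Nts*-/- livers, but below 0 in both with library totals in place of TMM. Those of *Apoa4* (0.25, −1.21 to 1.70), *Apoa1* (0.27, −0.38 to 0.92), *Mttp* (0.095, −0.32 to 0.51), *Apoc3* (0.087, −0.40 to 0.58) and *Apob* (−0.19, −0.72 to 0.34) include 0 as well.

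Counts of the cell types that whole liver holds were set beside these results. The hepatocyte markers summed to between 119389 and 156567 CPM over the 12 livers, and 2 of the 6, *Ttr* and *Trf*, were called lower after fasting in both genotypes. The cholangiocyte markers, all 6 with counts, summed to 33.96 to 50.23 CPM in the 6 fed livers and 13.9 to 30.1 CPM in the 6 fasted ones. Most of that sum was *Spp1* (mean 24.6 CPM), and the others had means between 0.267 and 2.87 CPM. In each genotype 1 was called lower (*Spp1* in *Nts*+/+ and *Sox9* in *Nts*-/-). Without passing, *Sox9* was above 0 in *Nts*+/+ (log2 fold change 0.26), and *Epcam* and *Cldn7* were in *Nts*-/- (0.23 and 0.20). The other tested cholangiocyte markers were below 0. The stellate cell markers (8 of 8 with counts) summed to 241 to 322 CPM in fed and 226 to 258 CPM in fasted livers. Of these 8, 2 were called lower after fasting in *Nts*+/+ (*Lrat* and *Pdgfrb*) and 5 in *Nts*-/- (*Lrat*, *Pdgfrb*, *Reln*, *Col1a1* and *Rgs5*). The sinusoidal endothelial markers (6 of 6) summed to 159 to 229 CPM and 141 to 176 CPM, with *Clec4g* called lower in both genotypes and *Lyve1* higher in *Nts*+/+. Of 5 adipocyte markers, *Lep* and *Retn* were at 0 and the sum reached at most 0.260 CPM, and the 5 erythroid markers summed to 233 to 628 CPM, with *Alas2* called lower in *Nts*-/-. The part of these genes in the results was not tested.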

How the data were processed

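Liver RNA of 12 mice was measured by RNA-seq. The authors deposited 1 table of expected counts per gene. These are unscaled estimates and can be fractional. The submitters' processing notes name Trimmomatic, RSEM and GRCm38 without versions. Such estimates divide reads that fit several genes, so overlapping genes are less certain. All columns belong to these mice (0 columns of other samples). Groups came from the labels, and each replicate is a separate mouse. Because replicates differed beyond sampling noise (chi-square per gene 36.9 to 102), no library was counted as a repeat of another.

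Expected counts were rounded. In R 4.3.3, edgeR 4.0.16 kept 13812 genes (filterByExpr), normalized by TMM and tested a model of the 4 group means by robust quasi-likelihood (common biological coefficient of variation 0.202), for 5 contrasts: fasted against fed in each genotype, genotype in each feeding state, and the difference of the fasting responses. Benjamini-Hochberg adjusted *p* values under 0.05 over all tested genes passed. Each SE was calculated back from the quasi-likelihood F statistic, as the absolute log2 fold change divided by the square root of F. Confidence intervals are at 95% and use this SE with a t quantile. Log2 CPM for likeness used a prior count of 2. Shares and ratios were compared with two-sided exact permutation tests. The ratios of members use the counts of the edgeR tests and are not independent of those tests. Totals of 21999647 to 45273069 counts put a floor of 3 counts at 0.0663 to 0.136 CPM, which covers counting error only. Of these steps, only the edgeR fit was tested on simulated data, and only for the fasting contrast in *Nts*+/+.

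The 10 members and the lists were chosen with earlier results of these data known. Some genes of the receptor list are not reported here, and its counts and median are over the 12 others. Named besides the members are up to 3 called genes of the largest fold change per list and fasting comparison, genes within 0.1 Mb of the clusters, and the 3 nearest genes in pattern. For VLDL lipidation and export and for the transcription regulators, all called genes are named. Alternatives were DESeq2's size factors in edgeR, library totals, no filter, DESeq2 1.42.0, only the groups compared, no robust step, removal of the trend with transcript length (GENCODE vM39, matched for 99.2% of tested genes), denominators without mitochondrial genes or *Alb*, and leaving out each mouse.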

Additional observations from a re-analysis of the deposited data

How the results depend on the processing

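No paired analysis was possible because the mouse numbers in the labels are not shared between groups. Member calls after fasting in *Nts*+/+ went from 4 to 2 without mouse 282 (range 2 to 4 over mice left out, and 3 to 5 under the other alternatives) and in *Nts*-/- from 6 to 5 (5 without each single mouse, and 5 to 6 otherwise). They remained 0 for genotype and for the difference of the responses under every alternative. Differences in the members' share of all counts kept their sign under all alternatives, but moved with single mice. Fasted minus fed in *Nts*+/+ went from 0.18 percentage points to 0.029 without mouse 265, 0.076 without 254, 0.32 without 257 and 0.36 without 322, and *Nts*-/- minus *Nts*+/+ went from 0.19 to 0.0086 without 322, 0.12 without 295 and 0.34 without 265 in fasted livers, and from −0.45 to −0.24 without 303 and −0.69 without 319 in fed livers.

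Calls on single genes that were lost or gained stand beside each gene above, and signs turned only in comparisons that a member had not passed. Library totals without TMM moved the median of all genes by −0.16 in the *Nts*-/- fasting comparison and by −0.10 in the difference, and gave −0.0072 for *Apoa2*, −0.059 for *Apoe* and −0.060 for *Apom* after fasting in *Nts*-/-, 0.025 for *Apoa5* in fed genotype, and −0.0068 for *Apoc3* and −0.0012 for *Mttp* in the difference. *Apoc3* after fasting in *Nts*-/- became 0.0049 with DESeq2's size factors, 0.0067 in DESeq2 and 0.0012 without the length trend. Removal of that trend gave −0.027 for *Apoa4* and 0.089 for *Apob* in fasted genotype and 0.085 for *Apob* in the difference. Leaving out 1 mouse gave ranges of −0.18 to 0.079 (*Apoc3*, fasting in *Nts*+/+), −0.071 to 0.087 (*Apoc3*) and −0.023 to 0.29 (*Apom*, fasting in *Nts*-/-), −0.62 to 0.39 (*Apoa4*) and −0.25 to 0.089 (*Apoa5*, fed genotype), −0.094 to 0.19 (*Apoa1*), −0.29 to 0.23 (*Apoa4*), −0.17 to 0.13 (*Apob*) and −0.082 to 0.20 (*Apoe*, fasted genotype), and −0.37 to 0.65 (*Apoa4*), −0.086 to 0.18 (*Apoc3*) and −0.031 to 0.18 (*Mttp*) in the difference. For these turns the cause was not tested. With 3 mice per group, differences smaller than the intervals given could not be shown.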
